A study of Mus musculus with 12 samples.

Results

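The 52 genes described here are the nuclear genes whose names in the scanner files begin with Sdha to Sdhd, Uqcr, Cox and a digit, Cyc1 or Atp5, out of 27597 genes or names on the array. They comprise 4 genes of complex II (succinate dehydrogenase), 8 of complex III (the cytochrome bc1 complex), 16 of complex IV (cytochrome c oxidase), 6 assembly factors of complex IV, 15 of complex V (ATP synthase) and 3 others that share the name only or act between complexes. Their signals were measured in whole gastrocnemius, a calf muscle, of adult male CD1 mice. There were 4 groups of 3 arrays each: denervated muscle of Smad4 knockout mice (KO), control muscle of KO mice, denervated muscle of wild-type mice (WT) and control muscle of WT mice. Denervated muscle was taken 14 days after the nerve supply was lost, and control muscle was innervated. Each of the 3 experiments of a condition used different animals, per the series description. The labels do not say in which cells Smad4 was removed, by what driver or which part of the gene was deleted, nor whether the control muscle came from the other leg of a denervated mouse.

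Complex II takes electrons from succinate and passes them to coenzyme Q, complex III moves them from coenzyme Q to cytochrome c, and complex IV hands them to oxygen. Complexes III and IV pump protons as they do so, and complex V lets the protons flow back to make ATP. Several small subunits of complex IV exist as a ubiquitous isoform and as an isoform of heart and skeletal muscle, encoded by separate genes. Skeletal muscle fibres that work for long periods are rich in these complexes. Smad4 is the Smad protein shared by the TGF-beta and BMP pathways.

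Values are log2 intensities minus the 75th percentile of their array, so that 0 is the 75th percentile and differences are on the log2 scale. A gene was called changed at an adjusted p under 0.05 in a limma fit of all 15226 genes tested. Of the 52 genes, 50 were well above background on all 12 arrays and were tested. The remaining ones, Cox4i2, the lung isoform of subunit IV, and Cox8c, the testis isoform of subunit VIII, were not well above background on any array. Each gene is represented by its brightest probe, and 16 of the 52 have more than 1 probe. The number of arrays, 3 per group, limits the precision of every value, and levels of different genes are not compared, since probes differ in brightness.

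Smad4 itself stood between 1.68 and 1.99 in KO denervated muscle, against 3.11 to 3.45 in WT denervated muscle, and between 2.12 and 2.37 in KO control muscle, against 3.52 to 3.94 in WT control muscle. Both differences were called (limma adjusted p = 0.00159 and 0.0217), although whether the probe lies in the deleted part is not known. Arrays of a group correlated at 0.974 to 0.985 over all genes tested. Arrays of different groups shared 4 slides, of which slide 4 was scanned on a different day and held no WT control array. Slide 1 held KO denervated replicate 1 with WT denervated and WT control replicate 1, slide 2 KO control and WT control replicate 2, slide 3 KO denervated, KO control and WT control replicate 3, and slide 4 the remaining 4 arrays.

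Most genes of complexes II to V were lower in denervated than in control muscle of both genotypes. In KO muscle 39 of the 50 tested genes were lower and 3 higher, where 23.5% of all genes tested were called lower and 23.4% higher. In WT muscle 27 were lower and 5 higher, where 20% of all genes were called lower and 19.2% higher. The count of 5 is 3 with the replicate number as a block within genotype. The median change of the 50 genes was -0.88 in KO muscle and -0.51 in WT muscle, against -0.00318 and -0.00328 for all genes tested. For the 801 other genes with a mean level at or above the lower quartile of these 50 it was -0.22 in KO muscle and -0.05 in WT muscle. The 3 denervated arrays lay wholly below the 3 control arrays for 41 of the 50 genes in KO muscle and for 29 in WT muscle, where 28.4% and 26.2% of all genes did so. They lay wholly above for 4 genes in KO and 5 in WT muscle, against 28.1% and 26.7% of all genes. Changes were below 0 for 45 of 50 genes in KO and 44 in WT muscle, against 50.2% and 50.1% of all genes. Within slides the median difference was -0.87 on slide 3 and -0.65 on slide 4 in KO muscle, and -0.47 on slide 1 in WT muscle. With quantile normalization in place of the 75th percentile the KO median was -0.45 with 27 genes lower, and the WT median stayed within the spread between arrays with 25 lower.

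**Figure D1:**
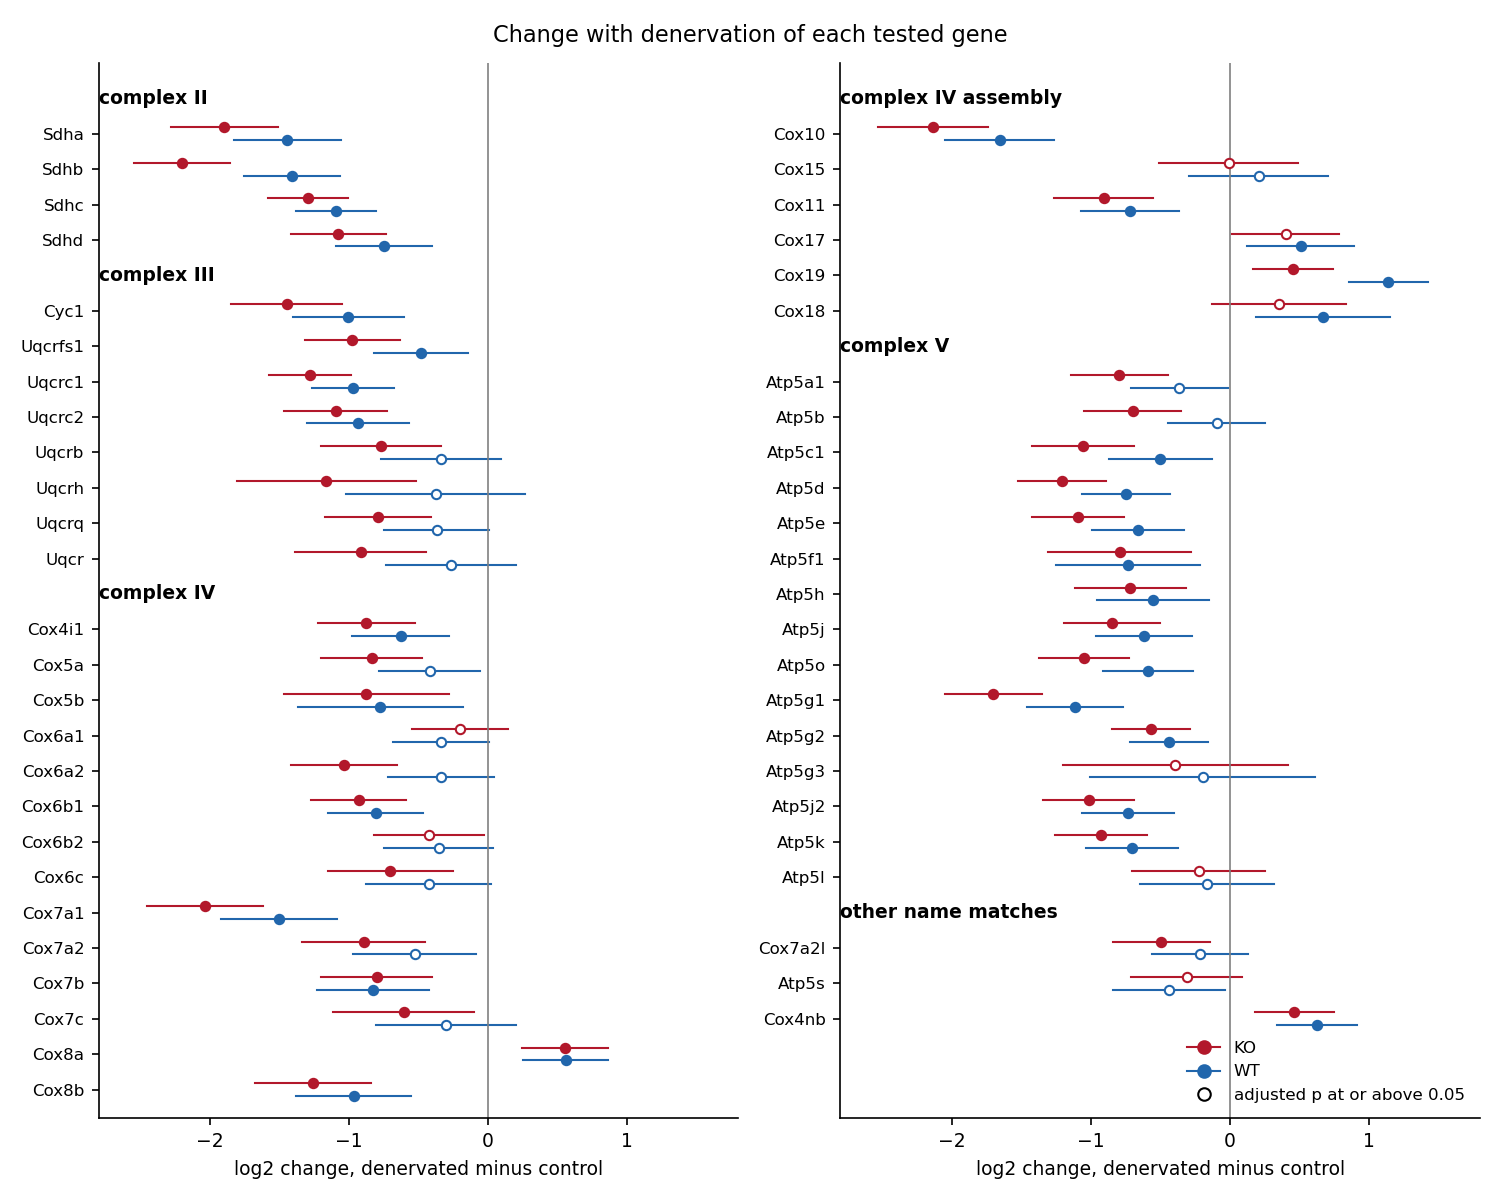
Log2 change with denervation of each of the 50 tested genes, grouped by complex, in KO muscle (red, upper of each pair) and WT muscle (blue), with limma's 95% confidence intervals. Filled points have an adjusted p under 0.05. Nearly all subunits lie left of 0, while Cox8a and several complex IV assembly factors lie right of it.

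The muscle was also checked for its cells, since whole muscle holds more than fibres and a fall in RNA per cell cannot be told apart from a loss of cells. All 6 markers of skeletal muscle fibres were measured, of which 3 were lower in denervated KO muscle and 1 in denervated WT muscle. Their mean level was 7.26 to 7.50 in KO denervated against 8.19 to 8.28 in KO control muscle, and 7.40 to 8.01 in WT denervated against 7.70 to 8.19 in WT control muscle. Of 6 endothelial markers 5 were lower in denervated KO and 4 in denervated WT muscle, with mean levels of -0.00473 to 0.22 against 1.17 to 1.38 in KO and of -1.22 to 0.51 against 1.08 to 1.32 in WT muscle. Of 6 Schwann cell markers 4 were lower in each genotype, with mean levels of -1.54 to -1.37 against -0.61 to 0.85 in KO and of -2.18 to -1.70 against -0.10 to 0.48 in WT muscle. All 3 erythrocyte markers tested were lower in both genotypes, with mean levels of -1.78 to -0.87 against 0.38 to 1.15 in KO and of -0.10 to 0.23 against 1.05 to 1.81 in WT muscle. Of 6 macrophage markers 3 in KO and 1 in WT muscle were higher, with mean levels of -0.09 to 0.31 against -1.27 to -0.12 in KO and of -0.27 to 0.03 against -0.86 to -0.65 in WT muscle. Of 6 smooth muscle and pericyte markers 2 in KO and 3 in WT muscle were lower, of 6 fibroblast markers 0 and 1, and of 5 adipocyte markers none in either. Of 2 tested brown fat markers 1 in KO and 2 in WT muscle were higher, and of 2 tested heart muscle markers 1 in KO and 0 in WT muscle was lower. The part of these cells in the changes below was not tested. Ucp1 and Elovl3, which mark brown fat, and Nppa and Myl7, which mark heart muscle, were not well above background on any array.

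Complex II showed the lowest median of the complexes with denervation, and all 4 of its subunits were called lower in each genotype. The median change was -1.60 in KO muscle and -1.25 in WT muscle. With all probes of a gene averaged, the KO medians were -1.21 for complex II and -1.05 for complex V, so the gap depends on probe choice. Sdhb, the iron-sulphur subunit, whose probe lies at chr4:140238675-140243242 on the plus strand of mm8, stood at 4.32, 4.30 and 4.34 in KO denervated muscle, against 6.33, 6.70 and 6.54 in KO control muscle. In WT muscle it stood at 5.33, 5.22 and 4.88 when denervated, against 6.45, 6.49 and 6.73 in controls. The 3 KO denervated arrays lay close together and below the WT denervated arrays, and both lay far below all 6 controls. Sdhb was therefore 4.61-fold lower in KO muscle (-2.20, SE 0.16, adjusted p = 1.85e-06) and 2.66-fold lower in WT muscle (-1.41, SE 0.16, adjusted p = 4.88e-05).

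Sdha, the flavoprotein that oxidises succinate, had 3.64, 3.03 and 3.48 in KO denervated muscle, against 5.09, 5.20 and 5.55 in KO control muscle. It had 4.08, 4.004 and 3.96 in WT denervated muscle, against 5.43, 5.52 and 5.43 in WT control muscle. No denervated array reached any control array, and the changes were -1.90 (SE 0.17, adjusted p = 1.05e-05) in KO muscle and -1.45 (SE 0.17, adjusted p = 9.39e-05) in WT muscle. Its other probe gave -1.51 and -1.12. The membrane anchor Sdhc stood at 4.08, 4.12 and 4.09 in KO denervated muscle, against 5.26, 5.41 and 5.50 in KO control muscle. It stood at 4.46, 4.48 and 4.22 in WT denervated muscle, against 5.57, 5.54 and 5.34 in WT control muscle. Again the groups did not overlap, with changes of -1.29 (SE 0.13, adjusted p = 1.92e-05) and -1.10 (SE 0.13, adjusted p = 8.39e-05). Sdhd, the other anchor, stood at 5.16, 5.35 and 5.18 in KO denervated muscle, against 6.37, 6.30 and 6.26 in KO control muscle. In WT denervated muscle Sdhd had 5.70, 5.64 and 5.15, against 6.25, 6.16 and 6.33 in WT control muscle. It showed the least change of the 4 subunits, with -1.08 (SE 0.16, adjusted p = 2.35e-04) in KO muscle and -0.75 (SE 0.16, adjusted p = 0.00318) in WT muscle.

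**Figure D2:**
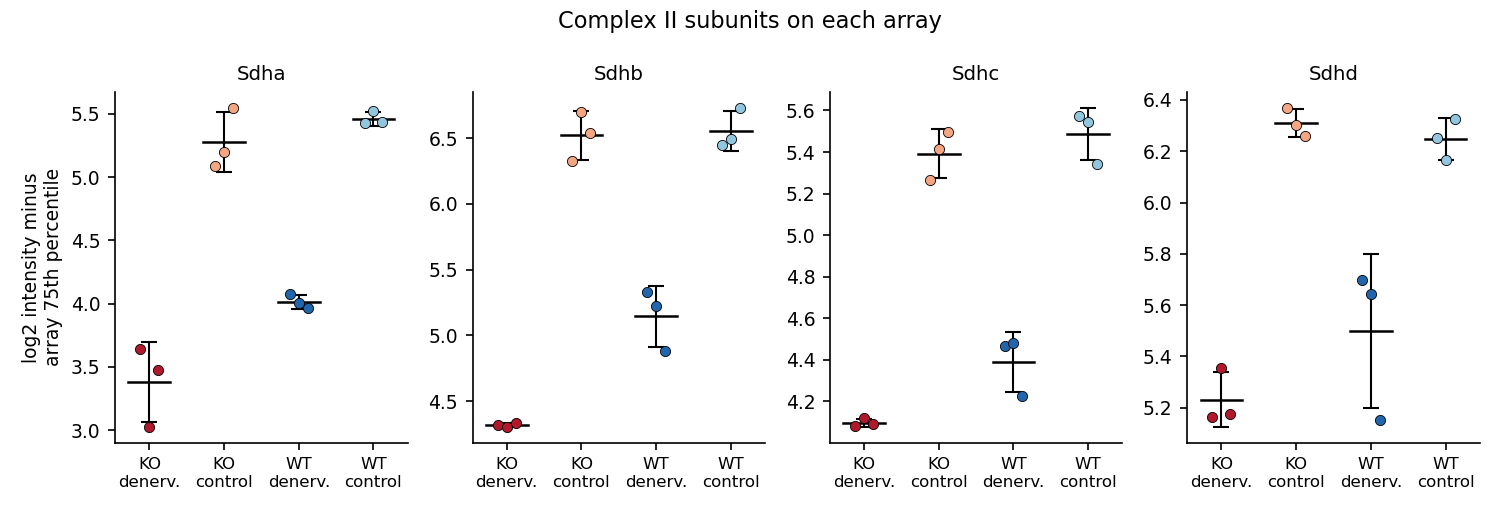
Level of the 4 complex II subunits on each array, as log2 intensity minus the array's 75th percentile, by group, with each array as a point and the mean and SD of 3 arrays as lines. In every panel the denervated arrays lie below all control arrays, and for Sdhb the 3 KO denervated arrays, at 4.30 to 4.34, lie below the WT denervated arrays, at 4.88 to 5.33.

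All 8 complex III genes were called lower in denervated KO muscle, with a median of -1.04, and 4 of 8 in denervated WT muscle, with a median of -0.43. Those called in both genotypes were Cyc1, Uqcrfs1, Uqcrc1 and Uqcrc2. The WT call of Uqcrfs1, the Rieske protein, was lost with the replicate number as a block within genotype (adjusted p = 0.0714) and in 10 of the 26 alternatives and left-out arrays in all. Cyc1, the cytochrome c1 that passes electrons on to cytochrome c, stood at 5.20, 4.87 and 5.20 in KO denervated muscle, against 6.42, 6.86 and 6.33 in KO control muscle. It stood at 5.64, 5.55 and 5.25 in WT denervated muscle, against 6.32, 6.62 and 6.53 in WT control muscle. The arrays did not overlap in either genotype, and Cyc1 was 2.73-fold lower in KO (-1.45, SE 0.18, adjusted p = 8.77e-05) and 2.01-fold lower in WT muscle (-1.01, SE 0.18, adjusted p = 0.00132). The core protein Uqcrc1 had 5.75, 5.87 and 5.82 in KO denervated muscle, against 7.03, 7.31 and 6.95 in KO control muscle. It had 6.11, 6.02 and 5.87 in WT denervated muscle, against 6.89, 7.02 and 7.01 in WT control muscle. Its changes were -1.28 (SE 0.13, adjusted p = 2.50e-05) and -0.97 (SE 0.13, adjusted p = 2.35e-04), and its dimmer probe fell further, by 1.62 and 1.48. Uqcrc2, the other core protein, had 5.60, 5.89 and 5.65 in KO denervated muscle, against 6.70, 6.89 and 6.84 in KO control muscle. It had 5.64, 6.28 and 5.82 in WT denervated muscle, against 6.89, 6.79 and 6.88 in WT control muscle. Its changes were of similar size, -1.10 (SE 0.17, adjusted p = 3.50e-04) in KO and -0.94 (SE 0.17, adjusted p = 0.00130) in WT muscle.

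The small complex III subunits Uqcrb, Uqcrh, Uqcrq and Uqcr (Uqcr11 in RefSeq) were called lower in KO muscle, with changes from -1.16 for Uqcrh to -0.77 for Uqcrb, and not in WT muscle, with changes from -0.38 for Uqcrh to -0.27 for Uqcr. Uqcrh, the hinge protein that binds cytochrome c1, stood at 6.01, 7.28 and 6.87 in KO denervated muscle, against 7.73, 8.07 and 7.84 in KO control muscle. It stood at 7.13, 7.40 and 7.05 in WT denervated muscle, against 7.14, 7.70 and 7.87 in WT control muscle. KO denervated replicate 1 was far lower than the other arrays, and denervated and control arrays overlapped in WT muscle. The dimmer probe of Uqcrh gave -0.82 in KO and -0.59 in WT muscle, closer together than with the brightest probe. The Uqcrh call in KO muscle was lost under quantile normalization, at -0.55 (adjusted p = 0.0864). That of Uqcrq was lost in 4 of 26 settings, and its dim second probe gave 0.21 in KO and -0.17 in WT muscle. None of these genes differed between the genotypes in its response beyond the test of that difference (adjusted p of the interaction 0.510 to 0.880 over complex III).

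**Figure D3:**
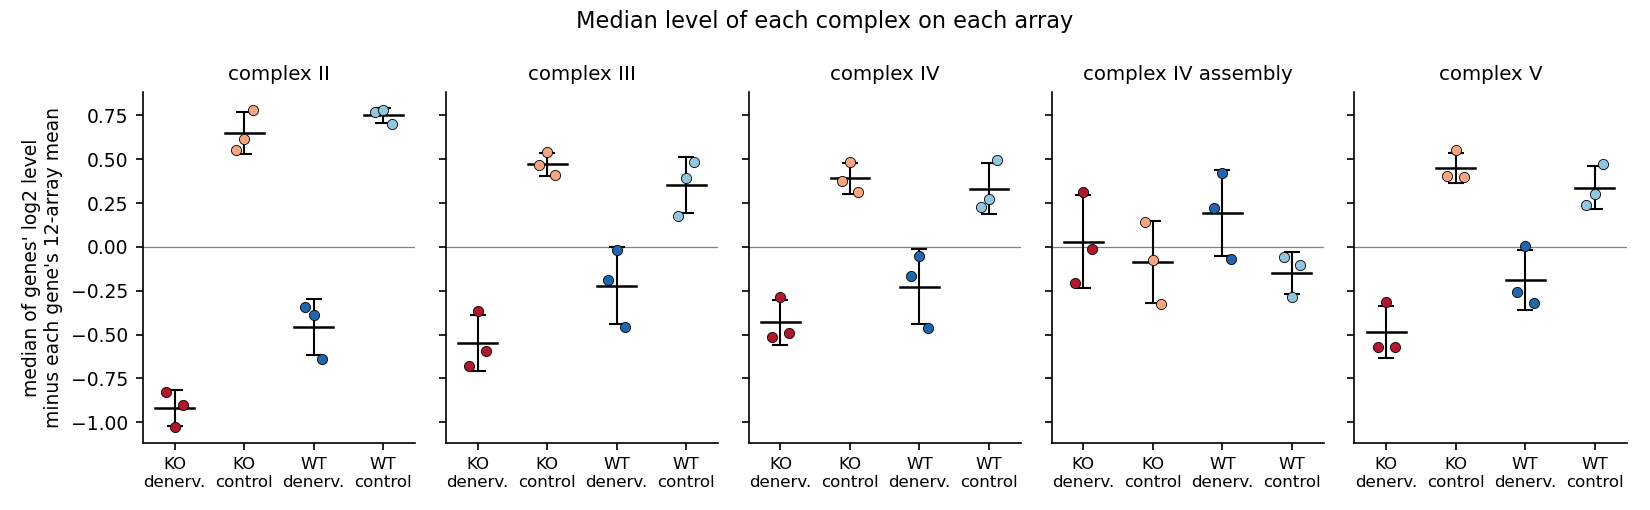
Median over the tested genes of each complex of the log2 level minus the gene's mean over 12 arrays, by group, with each array as a point and the mean and SD of 3 arrays as lines. In complexes II, III, IV and V the denervated arrays lie below the control arrays of their genotype, while the arrays of the complex IV assembly factors overlap between groups.

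In complex IV, 11 of 14 tested subunits were called lower and 1 higher in denervated KO muscle, against 6 lower and 1 higher in denervated WT muscle. The medians were -0.86 in KO and -0.48 in WT muscle. Cox4i1, the common isoform of subunit IV, stood at 6.67, 6.84 and 6.84 in KO denervated muscle, against 7.44, 7.90 and 7.65 in KO control muscle. It stood at 7.12, 7.20 and 6.79 in WT denervated muscle, against 7.67, 7.57 and 7.76 in WT control muscle. Denervated arrays lay below the controls in both genotypes, with changes of -0.88 (SE 0.16, adjusted p = 0.00104) and -0.63 (SE 0.16, adjusted p = 0.00931). Of 26 alternatives and left-out arrays, 2 lost the KO call (adjusted p up to 0.198) and 3 the WT call (up to 0.152). Its counterpart Cox4i2 lay between -7.09 and -4.85 over all 12 arrays, not well above background, so its levels were not compared between groups. Cox7b, a small structural subunit, had 4.71, 5.05 and 4.48 in KO denervated muscle, against 5.64, 5.43 and 5.58 in KO control muscle. It had 4.76, 5.05 and 4.60 in WT denervated muscle, against 5.46, 5.58 and 5.86 in WT control muscle. The 2 genotypes gave nearly the same change, -0.80 (SE 0.18, adjusted p = 0.00416) and -0.83 (SE 0.18, adjusted p = 0.00447). Cox5b and Cox6b1 were also called lower in both genotypes, with -0.88 and -0.93 in KO and -0.77 and -0.81 in WT muscle. The calls of Cox5b were lost in 6 of 26 settings in KO and 12 of 26 in WT muscle, and those of Cox6b1 in none. Cox5a, Cox6c and Cox7c were called in KO muscle, at -0.84, -0.71 and -0.61, and not in WT muscle, at -0.42, -0.43 and -0.30. Cox6b2, the testis isoform of subunit VIb, was called in neither genotype.

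The muscle isoforms of complex IV moved differently from their ubiquitous partners in 2 of 3 pairs. Cox7a1, the heart and muscle isoform of subunit VIIa (probe at chr7:29894078-29894689, plus strand, mm8), stood at 5.85, 5.44 and 5.27 in KO denervated muscle, against 7.52, 7.59 and 7.55 in KO control muscle. It stood at 6.02, 6.40 and 5.86 in WT denervated muscle, against 7.38, 7.65 and 7.77 in WT control muscle. All denervated arrays lay below all controls, and Cox7a1 was 4.10-fold lower in KO (-2.04, SE 0.19, adjusted p = 1.12e-05) and 2.84-fold lower in WT muscle (-1.51, SE 0.19, adjusted p = 1.25e-04). Cox7a2, the ubiquitous isoform (probe at chr9:79541104-79541163, minus strand, mm8), stood at 4.03, 4.66 and 4.48 in KO denervated muscle, against 5.50, 5.13 and 5.23 in KO control muscle. It stood at 5.06, 4.92 and 4.58 in WT denervated muscle, against 5.39, 5.18 and 5.57 in WT control muscle. Its change was smaller, -0.90 (SE 0.20, adjusted p = 0.00380) in KO and -0.53 (SE 0.20, adjusted p = 0.0575) in WT muscle, where it was not called. Over both genotypes the change of Cox7a1 lay 1.06 below that of Cox7a2 (difference -1.06, exact permutation test within genotype, two-sided p = 0.005, the smallest that 400 arrangements can give, 0.0075 after Benjamini-Hochberg adjustment over 3 pairs), and all 6 denervated arrays showed this direction.

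Subunit VIII behaved in opposite ways by isoform. Cox8b, the heart and muscle isoform (probe at chr7:140750273-140750332, minus strand, mm8), stood at 5.90, 6.26 and 5.76 in KO denervated muscle, against 7.21, 7.27 and 7.22 in KO control muscle. It stood at 5.88, 6.30 and 5.84 in WT denervated muscle, against 6.68, 7.02 and 7.23 in WT control muscle. It was 2.39-fold lower in KO (-1.26, SE 0.19, adjusted p = 3.06e-04) and 1.96-fold lower in WT muscle (-0.97, SE 0.19, adjusted p = 0.00220). Cox8a, the ubiquitous isoform (probe at chr19:7282281-7282340, minus strand, mm8), stood at 4.14, 4.46 and 4.17 in KO denervated muscle, against 3.67, 3.70 and 3.75 in KO control muscle. It stood at 4.16, 4.46 and 4.25 in WT denervated muscle, against 3.60, 3.83 and 3.77 in WT control muscle. Cox8a was thus higher on every denervated array than on any control array, by 1.47-fold in each genotype (0.55, SE 0.14, adjusted p = 0.00737 in KO and 0.56, SE 0.14, adjusted p = 0.00877 in WT), and it was the only tested subunit of complexes II to V called higher. That call was lost with normexp background correction (adjusted p = 0.258 in KO and 0.475 in WT) and stayed under the other alternatives run. The change of Cox8b lay below that of Cox8a by 1.81 in KO and 1.53 in WT muscle (difference over both genotypes -1.67, exact permutation test within genotype, two-sided p = 0.005, adjusted 0.0075), on 6 of 6 denervated arrays.

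For subunit VIa only KO muscle showed a called change, in the muscle isoform. Cox6a2, the heart and muscle isoform (probe at chr7:127996794-127996853, minus strand, mm8), stood at 6.96, 7.27 and 7.07 in KO denervated muscle, against 8.04, 8.29 and 8.08 in KO control muscle. It stood at 7.40, 7.93 and 7.57 in WT denervated muscle, against 7.76, 7.99 and 8.18 in WT control muscle. The groups separated in KO muscle (-1.04, SE 0.17, adjusted p = 6.24e-04) and overlapped in WT muscle (-0.34, SE 0.17, adjusted p = 0.145). Under quantile normalization the KO change was -0.30 (adjusted p = 0.0298). Cox6a1, the ubiquitous isoform (probe at chr5:115606716-115606775, minus strand, mm8), stood at 5.06, 5.42 and 5.10 in KO denervated muscle, against 5.43, 5.36 and 5.38 in KO control muscle. It stood at 4.99, 5.20 and 4.94 in WT denervated muscle, against 5.17, 5.34 and 5.63 in WT control muscle. Denervated and control arrays of Cox6a1 overlapped in both genotypes and it was not called, at -0.20 (SE 0.16, adjusted p = 0.315) and -0.34 (SE 0.16, adjusted p = 0.113). The change of Cox6a2 minus that of Cox6a1 was -0.84 in KO and -0.00408 in WT muscle, on average -0.42 (exact permutation test within genotype, two-sided p = 0.05, adjusted 0.05), which did not pass the threshold. Under quantile normalization it was -0.06 (exact p = 0.59), and with the deposited values -0.09 (exact p = 0.415). The KO response of this pair minus its WT response, a comparison added after the values were seen, was -0.83. An exact permutation of genotype labels within condition gave a two-sided p = 0.01, 0.03 after adjustment over 3 pairs. Its null is no genotype difference in either condition, which is stricter than equal responses. With the deposited values the difference of responses was -0.51 (exact p = 0.05), which did not pass. The 6 markers of skeletal muscle fibres had a median difference of responses of -0.71, and none was called.

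**Figure D4:**
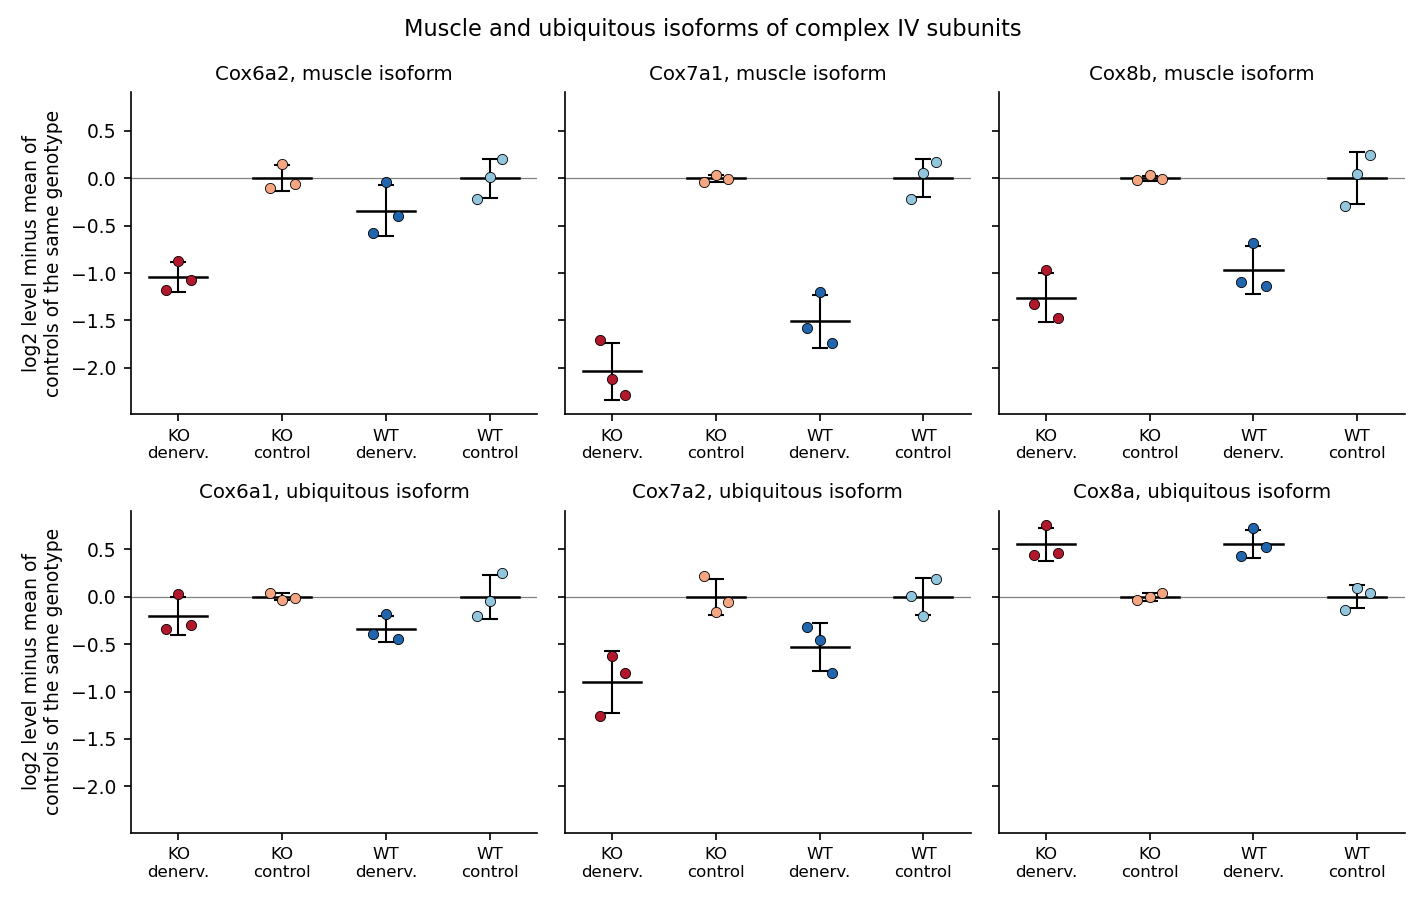
Level of the muscle isoforms (top) and ubiquitous isoforms (bottom) of subunits VIa, VIIa and VIII on each array, as log2 level minus the mean of the control arrays of the same genotype, with each array as a point and the mean and SD of 3 arrays as lines. Cox7a1 and Cox8b lie below their controls in both genotypes, Cox6a2 clearly so in KO muscle, and Cox8a lies above its controls.

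Since Cox7a1 and Cox8b fell where Cox8a rose and Cox7a2 moved less, the 250 bases before the start sites of these 4 genes are shown, 5′ to 3′ on the strand of the gene, from RefSeq on GRCm38.p6. CG dinucleotides, which are dense in promoters of many broadly expressed genes, are in capitals.
Cox7a1, chr7:30183921-30184170, plus strand: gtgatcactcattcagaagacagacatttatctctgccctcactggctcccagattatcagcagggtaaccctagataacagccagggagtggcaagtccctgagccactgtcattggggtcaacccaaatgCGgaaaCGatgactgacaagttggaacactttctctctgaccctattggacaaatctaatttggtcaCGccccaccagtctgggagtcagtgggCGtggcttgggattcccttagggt
Cox8b, chr7:140900447-140900696, minus strand: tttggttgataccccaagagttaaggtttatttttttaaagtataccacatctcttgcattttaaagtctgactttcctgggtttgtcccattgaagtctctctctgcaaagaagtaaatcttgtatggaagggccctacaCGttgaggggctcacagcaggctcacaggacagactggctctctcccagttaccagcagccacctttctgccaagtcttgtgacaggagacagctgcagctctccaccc
Cox7a2, chr9:79759854-79760103, minus strand: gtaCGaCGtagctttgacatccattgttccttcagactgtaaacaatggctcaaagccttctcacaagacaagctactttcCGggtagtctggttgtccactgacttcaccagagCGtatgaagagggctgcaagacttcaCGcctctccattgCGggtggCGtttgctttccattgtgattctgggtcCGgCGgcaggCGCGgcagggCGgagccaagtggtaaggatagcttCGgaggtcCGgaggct
Cox8a, chr19:7217617-7217866, minus strand: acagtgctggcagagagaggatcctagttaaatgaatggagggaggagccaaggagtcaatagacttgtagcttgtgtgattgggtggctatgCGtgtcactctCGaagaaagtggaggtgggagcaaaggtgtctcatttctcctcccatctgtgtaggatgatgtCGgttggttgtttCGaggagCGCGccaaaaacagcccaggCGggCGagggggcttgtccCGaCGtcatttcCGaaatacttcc

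The printed stretch holds 4 CG dinucleotides for Cox7a1 and 1 for Cox8b, against 14 for Cox7a2 and 11 for Cox8a. Over the full window of 300 bases, which runs on past the start site, the counts are 7 and 2 for the muscle isoforms, against 20 and 19 for the ubiquitous ones and 32 for Cox6a1. The median over all 32851 windows of the RefSeq table is 7 and the upper quartile 20. The table matched 38 of the 52 genes, with 41 windows, whose median is 20 and whose range is 2 to 43. Cox6a2, the remaining muscle isoform, had no window. Cox7b and Cox6b2, which are not muscle isoforms, had counts of 5 and 10. The binding motif of ETS factors, searched as CCGGAAG, is in 14 of the 41 windows (34.1%), against 8.86% of all windows. The NRF1 motif, searched by its palindromic consensus, is in 4 of 41 (9.76%), against 0.971%. The motif of oestrogen-related receptors, AAGGTCA, is in 5 of 41 (12.2%), against 4.72%. The E-box CANNTG is in 29 of 41 (70.7%), against 72.3%, and the Sp1 motif GGGCGG in 16 of 41 (39.0%), against 35.7%. Both strands were searched, and none of these motifs contains another. The full window of Cox8a holds the ETS motif at 2 places, neither of them wholly within the printed stretch. The windows of Cox7a1, Cox8b and Cox7a2 hold it at none. No window of these 4 holds the NRF1 or the oestrogen-related receptor motif. The ETS, NRF1 and Sp1 motifs as searched each contain a CG, and the windows compared were not matched for CG content. These matches describe letters only.

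The 6 assembly factors of complex IV, which insert haem and copper or place subunits in the membrane, did not move together. In denervated KO muscle 2 were called lower and 1 higher, and in denervated WT muscle 2 lower and 3 higher. Cox10, which makes the first step from haem B towards haem A, stood at -2.59, -3.21 and -2.75 in KO denervated muscle, against -0.93, -0.55 and -0.66 in KO control muscle. It stood at -2.26, -2.46 and -2.29 in WT denervated muscle, against -0.72, -0.52 and -0.80 in WT control muscle. No array overlapped, and Cox10 was 4.39-fold lower in KO (-2.14, SE 0.18, adjusted p = 5.81e-06) and 3.15-fold lower in WT muscle (-1.65, SE 0.18, adjusted p = 4.25e-05). With normexp background correction the Cox10 changes were -0.91 and -0.65 and neither was called (adjusted p = 0.0520 and 0.197). Cox15, which takes the next step of haem A synthesis, lay between 0.56 and 1.22 on all 12 arrays and was called in neither genotype. Cox11, which helps to insert copper, had 2.19, 2.57 and 2.36 in KO denervated muscle, against 3.18, 3.42 and 3.24 in KO control muscle. It had 2.73, 2.89 and 2.46 in WT denervated muscle, against 3.34, 3.30 and 3.59 in WT control muscle. Its denervated arrays lay below all controls, with changes of -0.91 (SE 0.16, adjusted p = 9.22e-04) and -0.72 (SE 0.16, adjusted p = 0.00493).

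Cox19, a factor of the intermembrane space needed for copper delivery to complex IV, stood at 3.31, 3.37 and 3.16 in KO denervated muscle, against 2.94, 2.81 and 2.72 in KO control muscle. It stood at 3.69, 3.84 and 3.58 in WT denervated muscle, against 2.58, 2.46 and 2.65 in WT control muscle. Denervated arrays were above controls in both genotypes, by 1.37-fold in KO (0.45, SE 0.13, adjusted p = 0.0145) and 2.21-fold in WT muscle (1.14, SE 0.13, adjusted p = 6.08e-05). The KO response was 0.69 below the WT response (-0.69, SE 0.18), the smallest adjusted p of the interaction among these genes, which at 0.205 did not pass. The KO call of Cox19 was lost in 3 of 26 settings (adjusted p up to 0.569) and the WT call in none. The second probe of Cox19 gave 0.34 in KO and 0.90 in WT muscle. Cox17, the copper chaperone that feeds the complex IV copper sites, stood at 5.64, 6.27 and 5.91 in KO denervated muscle, against 5.56, 5.60 and 5.44 in KO control muscle. It stood at 6.09, 6.30 and 5.89 in WT denervated muscle, against 5.54, 5.48 and 5.72 in WT control muscle. It was called higher in WT muscle (0.51, SE 0.18, adjusted p = 0.0381) and not in KO muscle (0.40, SE 0.18, adjusted p = 0.0795), but its other probe gave -0.89 in KO and -0.23 in WT muscle, the opposite sign. Cox18, which places a domain of Cox2 in the inner membrane, had 2.06, 2.59 and 2.17 in KO denervated muscle, against 2.20, 1.98 and 1.57 in KO control muscle. It had 2.52, 2.89 and 2.24 in WT denervated muscle, against 1.89, 1.73 and 2.02 in WT control muscle. It was called higher in WT muscle only, with 0.67 (SE 0.22, adjusted p = 0.0307) against 0.36 (SE 0.22, adjusted p = 0.202) in KO muscle, and the interaction of Cox18 was not called (adjusted p = 0.802). The WT calls of Cox17 and Cox18 were lost with the replicate number as a block within genotype.

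**Figure D5:**
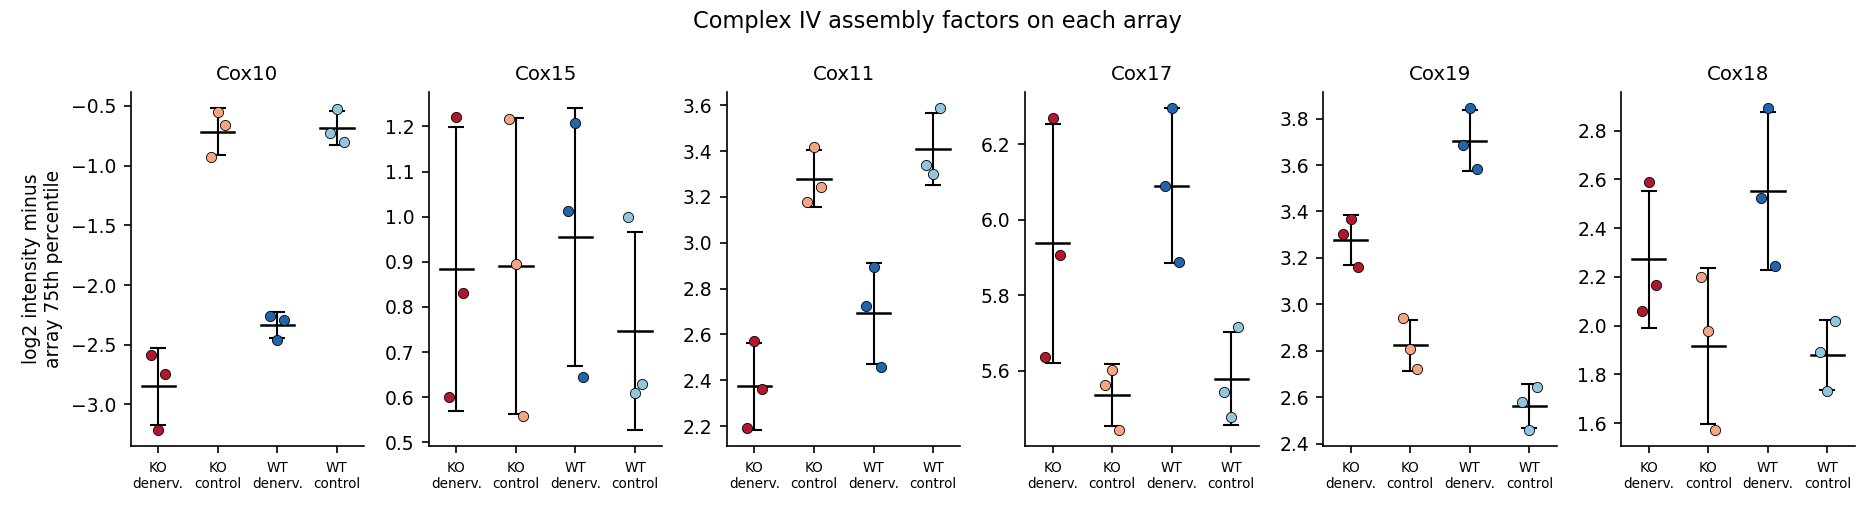
Level of the 6 complex IV assembly factors on each array, as log2 intensity minus the array's 75th percentile, by group, with each array as a point and the mean and SD of 3 arrays as lines. Each panel has its own scale. Cox10 and Cox11 lie below the controls in denervated muscle and Cox19 above them in both genotypes, while Cox15 overlaps.

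In complex V, 13 of 15 genes were called lower in denervated KO muscle and 11 of 15 in denervated WT muscle, and none was called higher. The medians were -0.85 in KO and -0.59 in WT muscle. Under quantile normalization they were -0.37 and -0.41. The F1 part, which carries the catalytic sites, is made of the products of Atp5a1, Atp5b, Atp5c1, Atp5d and Atp5e. Its gamma subunit Atp5c1, the central shaft, stood at 6.65, 7.12 and 6.86 in KO denervated muscle, against 7.85, 8.13 and 7.80 in KO control muscle. It stood at 7.15, 7.28 and 7.05 in WT denervated muscle, against 7.45, 7.65 and 7.88 in WT control muscle. Denervated arrays lay below controls, with -1.05 (SE 0.17, adjusted p = 4.55e-04) in KO and -0.50 (SE 0.17, adjusted p = 0.0360) in WT muscle, and the KO change was -0.40 under quantile normalization (adjusted p = 0.0170). The WT call of Atp5c1 was lost in 11 of 26 settings (adjusted p up to 0.179). Atp5d, the delta subunit of the shaft, had 5.11, 4.75 and 4.96 in KO denervated muscle, against 6.08, 6.29 and 6.07 in KO control muscle. It had 5.23, 5.22 and 5.26 in WT denervated muscle, against 5.81, 6.17 and 5.96 in WT control muscle. Its changes were -1.21 (SE 0.14, adjusted p = 6.18e-05) and -0.74 (SE 0.14, adjusted p = 0.00210). Atp5e, the epsilon subunit, had 6.60, 6.91 and 6.73 in KO denervated muscle, against 7.73, 8.02 and 7.75 in KO control muscle. It had 7.19, 7.13 and 6.89 in WT denervated muscle, against 7.59, 7.71 and 7.88 in WT control muscle. It was called in both genotypes, with -1.09 (SE 0.15, adjusted p = 1.74e-04) and -0.66 (SE 0.15, adjusted p = 0.00549). The WT call of Atp5e was lost in 3 of 26 settings (adjusted p up to 0.128).

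Probes of the catalytic F1 subunits disagreed in size. The brightest probe of Atp5b, the beta subunit, changed by -0.70 in KO and -0.09 in WT muscle, whereas its 2 dimmer probes changed by -1.54 and -1.42 in KO and by -0.90 and -0.97 in WT muscle. The call of Atp5b in KO muscle was lost under quantile normalization (-0.04, adjusted p = 0.791). For Atp5a1, the alpha subunit, the brightest probe gave -0.79 in KO and -0.36 in WT muscle and the other -1.34 and -0.91.

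The ring of c subunits that turns as protons pass is encoded by 3 genes whose mature proteins are the same, Atp5g1, Atp5g2 and Atp5g3. Atp5g1 stood at 5.53, 5.53 and 5.36 in KO denervated muscle, against 7.01, 7.35 and 7.16 in KO control muscle. It stood at 5.87, 6.21 and 5.76 in WT denervated muscle, against 6.91, 7.05 and 7.22 in WT control muscle. It was 3.25-fold lower in KO (-1.70, SE 0.16, adjusted p = 1.12e-05) and 2.16-fold lower in WT muscle (-1.11, SE 0.16, adjusted p = 2.87e-04), the lowest change of complex V in each genotype. Atp5g2 changed by less, -0.57 (SE 0.13, adjusted p = 0.00378) in KO and -0.43 (SE 0.13, adjusted p = 0.0198) in WT muscle, calls that were lost in 3 and 8 of 26 settings. Atp5g3 was called in neither, and KO control replicate 2, at 6.19 against 7.72 and 7.54 in the other KO controls, gave it the widest spread among the tested genes. The stalk genes Atp5f1 (stalk b), Atp5h (d), Atp5j (F6) and Atp5o (OSCP) were all called lower in both genotypes, with -1.05 to -0.71 in KO and -0.73 to -0.55 in WT muscle. Atp5j2, the membrane subunit f, had 5.82, 5.97 and 5.81 in KO denervated muscle, against 6.84, 6.97 and 6.83 in KO control muscle. It had 6.16, 6.27 and 5.89 in WT denervated muscle, against 6.67, 6.79 and 7.06 in WT control muscle. Its changes were -1.01 (SE 0.15, adjusted p = 2.71e-04) and -0.73 (SE 0.15, adjusted p = 0.00287). Atp5k, subunit e, was also called in both genotypes, at -0.92 and -0.70, while Atp5l, subunit g, was called in neither, at -0.22 and -0.16.

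Of the 3 remaining genes, Cox7a2l, a relative of Cox7a2 that joins complexes III and IV into supercomplexes, stood at 3.52, 3.72 and 3.66 in KO denervated muscle, against 3.95, 4.31 and 4.11 in KO control muscle. It stood at 4.12, 4.10 and 3.87 in WT denervated muscle, against 4.002, 4.27 and 4.45 in WT control muscle. It was called lower in KO muscle (-0.49, SE 0.16, adjusted p = 0.0246) and not in WT muscle (-0.21, SE 0.16, adjusted p = 0.312), and its interaction was not called (adjusted p = 0.743). The KO call of Cox7a2l was lost in 7 of 26 settings. Atp5s, now named Dmac2l, was called in neither genotype. Cox4nb, now named Emc8, belongs to a protein complex of the endoplasmic reticulum and lies next to Cox4i1 in the genome, at chr8:123543983-123544042 against chr8:123560001-123560060 on mm8. It was called higher in both genotypes, by 0.47 in KO and 0.63 in WT muscle, but its dim second probe gave -0.86 and -0.27, and the KO change turned to -0.20 when probes were averaged.

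Between genotypes, denervated KO muscle held lower levels of most of these genes than denervated WT muscle, though only 1 difference passed the test. Sdhb alone was called, 1.77-fold lower in KO denervated than in WT denervated muscle (-0.82, SE 0.16, adjusted p = 0.0207, 95% interval -1.17 to -0.48), where 1.44% of all genes tested were called lower and 0.952% higher. In control muscle Sdhb differed by -0.03 (SE 0.16). On slide 1 the difference of Sdhb in denervated muscle was -1.01 and on slide 4 it was -0.75. The call was lost without KO denervated replicate 2 or 3 (adjusted p = 0.0693 and 0.0637), without WT denervated replicate 1 or 2 (0.0736 and 0.0800), with only the 6 denervated arrays (0.0952), with no filter on dim probes (0.0535) and with normexp (0.998). In all, 47 of 50 genes were below 0, where 53.4% of all genes were, and 13 had KO denervated arrays wholly below WT denervated arrays, where 12.6% of all genes did. None had them wholly above, where 9.24% of all genes did. These 13 were Sdha, Sdhb, Sdhc, Cyc1, Uqcrc1, Cox6a2, Cox7a1, Cox10, Cox19, Atp5d, Atp5g1, Atp5g2 and Cox7a2l.

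The median difference of the 50 genes in denervated muscle was -0.27, against -0.03 for all genes. For the 801 other genes with a mean level at or above the lower quartile of these 50 it was -0.17, with 649 below 0. By complex the median difference was -0.46 for complex II, -0.30 for complex III, -0.26 for complex V and -0.24 for complex IV. The last became 0.00677 under quantile normalization. Under that normalization the median of all 50 genes was -0.06. On slide 1 it was -0.37 and on slide 4 -0.12. In control muscle none of the 50 genes was called by limma, where 0.00657% of all genes were called lower and 0% higher, and none had an unadjusted p under 0.05, where 4.01% of all genes did. The median there was 0.05, with 21 of 50 genes below 0, where 51.6% of all genes were. KO control arrays lay wholly above WT control arrays for Cox19 and Atp5b, and wholly below for none, where 4.03% and 4.49% of all genes did so.

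The response to denervation in KO muscle was lower than that in WT muscle for 47 of 50 genes (median difference of the responses -0.30), against 51.1% of all genes. Of the 801 other genes with a mean level at or above the lower quartile of these 50, 634 were below 0, with a median of -0.20. By limma's interaction term none of the 50 was called, where 0.0985% of all genes were called in each direction, and 9 had an unadjusted p under 0.05, where 9.55% of all genes did. These were Sdhb, Uqcrfs1, Cox6a2, Cox19, Atp5b, Atp5c1, Atp5d, Atp5o and Atp5g1. Sdhb had the largest of these differences, -0.79 (SE 0.22, adjusted p = 0.234), with a 95% interval of -1.28 to -0.31. Under quantile normalization the median difference of the responses was -0.10.

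Genes of the same pathway outside the name rule were counted as well, by the main fit only. Of 36 complex I subunits 31 were called lower in denervated KO and 25 in denervated WT muscle, with medians of -0.95 and -0.66 and none higher. Ndufs8, an iron-sulphur subunit, changed by -1.39 in KO and -1.20 in WT muscle, and Ndufa10 by -1.56 and -0.94. Of 10 tested carriers and enzymes of coenzyme Q synthesis 6 were lower in KO and 5 in WT muscle, among them cytochrome c itself, Cycs, at -1.32 and -0.71, and Coq9 at -1.64 and -1.22. Of 23 tested assembly factors with other names 15 were lower and 1 higher in KO and 9 lower in WT muscle, with Atpaf1, which assembles F1, at -1.38 and -0.998 and Bcs1l, which inserts the Rieske protein into complex III, at -1.06 and -0.95. Of 10 tested subunits and factors that the array lists under other names, 6 were lower in KO and 3 in WT muscle, led by the complex III subunit Uqcr10 at -1.03 and -0.98.

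Of the 15 tested regulators of mitochondrial gene expression and biogenesis 8 were lower in denervated KO and 6 in denervated WT muscle, and none was higher. Ppargc1a, the coactivator that raises mitochondrial gene expression, changed by -1.44 in KO and -1.76 in WT muscle. Esrra, an oestrogen-related receptor that works with it, changed by -1.63 and -1.14, and Perm1, a muscle regulator downstream of both, by -4.94 and -3.84. Esrrg, a related receptor, was the 1 regulator called between genotypes, at -1.31 in KO against WT denervated muscle (limma adjusted p = 0.0139). Among 8 tested carriers, porins and creatine kinases 7 were lower and 1 higher in KO and 6 lower in WT muscle, and mitochondrial creatine kinase Ckmt2 was called between genotypes as well, at -1.68 (adjusted p = 0.0121). Its changes with denervation were -3.22 in KO and -1.48 in WT muscle. The alternatives and left-out arrays were read only for the 52 genes. Whether the calls of Esrrg and Ckmt2 hold under them was not tested.

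Probes exist for 3 subunits encoded in the mitochondrial DNA. CYTB of complex III, COX2 of complex IV and ND4L of complex I were called lower in denervated KO muscle, at -0.59, -0.45 and -0.61 (limma adjusted p = 0.00278, 0.0379 and 0.0172), and none in denervated WT muscle, at -0.20, 0.10 and -0.03. Their interaction with genotype was not called for any of them. Their median change was -0.59 in KO and -0.03 in WT muscle. Their mean level was 6.58 to 6.79 in KO denervated against 7.21 to 7.24 in KO control muscle. The alternatives were read only for the 52 genes. How the calls of these 3 subunits depend on scaling was therefore not tested.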

How the data were processed

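Whole gastrocnemius RNA was hybridised to 12 one-colour Agilent arrays, 3 per group. The deposited scanner files hold a background-subtracted and processed intensity per spot, per the file headers, which name Feature Extraction 10.7.3.1, whereas the submitters' processing notes name version 10.5.1.1. The authors also deposited a linear intensity table whose column medians lie at 23.9 to 24.2; the method that scaled it is not given in the sources used here. From the scanner intensity, log2 values minus each array's 75th percentile (226 to 383 intensity units) were computed after removal of control spots and flagged spots (60 to 209 per array). None was saturated, and 49.9% to 56.4% of probes were well above background on each array.

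Of 41174 probes, 22524 were kept, which gave 15226 tested genes, each with its brightest probe. Probes were named through RefSeq by accession (24375 probes), symbol (6301) or synonym (2426), and otherwise kept the file's name (8072). A model with 4 group means was fitted to all 12 arrays with limma 3.58.1 in R 4.3.3, and p-values were adjusted by Benjamini-Hochberg over all genes tested, per comparison. The comparisons were denervated with control muscle within each genotype, KO with WT muscle within each condition, and the difference of the responses. Isoform pairs were tested on their difference by exact permutation of condition labels within genotype. The difference of their responses was tested by exact permutation of genotype labels within condition. With 3 against 3 arrays alone a permutation test cannot go below 0.1. The scripts were tested on simulated data. The members and gene lists were chosen with earlier results of these data known. Genes were named by the isoform pairs, the brightest subunit and the largest called changes of each complex; others were added after their values were seen. Alternatives covered scaling, background correction, filters, probe averaging, the deposited table, slide, scan day and replicate blocks, and each array left out in turn.

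Same-numbered arrays deviated together at correlations of 0.107 to 0.304 in WT and 0.0152 to 0.175 in KO muscle. Different-numbered denervated and control arrays of one genotype gave -0.251 to 0.016 in WT and -0.241 to 0.108 in KO muscle. In WT muscle every same-numbered pair thus lay above every different-numbered pair, and in KO muscle they overlapped. Arrays of different genotypes, which cannot share an animal, reached similar values. WT and KO denervated replicate 2, on the same slide, gave 0.299. WT control replicate 3 and KO denervated replicate 2, on different slides, gave 0.231. These correlations therefore do not settle whether the numbers pair arrays in either genotype.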

Additional observations from a re-analysis of the deposited data

Results flagged for a closer look

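The response of Cox6a2 minus that of Cox6a1 was lower in KO than in WT muscle by an exact permutation of genotype labels within condition. The null of that test is no genotype difference in either condition, which is stricter than equal responses. The response of this pair was -0.84 in KO muscle and -0.00408 in WT muscle, a difference of -0.83 (exact permutation test, two-sided p = 0.01, 0.03 after adjustment over 3 pairs, a comparison added after the values were seen). With the deposited values the difference was -0.51 (exact p = 0.05) and did not pass the threshold. Each of the 3 KO denervated arrays lay below each of the 3 WT denervated arrays, at -0.90 to -0.77 against -0.19 to 0.14 relative to the controls of the same genotype. For Cox7a1 minus Cox7a2 the same difference was -0.16 (exact p = 0.73), and for Cox8b minus Cox8a it was -0.29 (exact p = 0.14). The limma interaction of Cox6a2 alone was -0.70 and was not called (adjusted p = 0.387). The 6 markers of skeletal muscle fibres had a median difference of responses of -0.71, and none was called. Whether the difference is particular to this isoform pair was not tested. Under quantile normalization the KO change of Cox6a2 was -0.30.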

How the results depend on the processing

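Of the 42 calls with denervation in KO muscle 19 held under all alternatives and left-out arrays, and of the 32 in WT muscle 13 did. Sdhb, the 1 call between genotypes, did not. One called change reversed, that of Cox4nb in KO muscle, which was -0.20 with probes averaged. The cause of these changes was not tested. The number of arrays and, for dim probes, the signal over background limit what can be called.

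With normexp the counts in KO muscle were 22 lower and 0 higher, in WT muscle 12 lower and 1 higher, and between denervated genotypes 0. The WT count of higher genes was 3 with the array median, no filter, averaged probes, slide or scan day as a fixed block, or the replicate block within genotype. The count between denervated genotypes was 0 without a filter or with the 6 arrays compared alone, and 2 with scan day as a block. With slide as a fixed block, 9 of the 32 denervation calls in WT muscle and 1 of the 42 in KO muscle were lost. Over all genes, normexp called 1548 lower and 1198 higher in KO, 1149 and 778 in WT and 8 and 17 between denervated genotypes, against 3581 and 3560, 3043 and 2927, and 219 and 145. Without a filter 7013 were lower and 3477 higher in KO muscle, and 120 and 93 between denervated genotypes; the median of all genes then shifted to -0.33 in KO and -0.17 in WT muscle.

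With normexp the WT medians were -0.67 for all members, -1.51 for complex II, -0.63 for III, -0.66 for IV and -0.74 for V, and the KO median of V was -1.01. With quantile normalization the KO medians were -0.45 for all members, -1.40 for II, -0.60 for III, -0.36 for IV and -0.37 for V, and the WT median of V was -0.41. With the deposited values the KO medians were -0.46, -1.42, -0.59, -0.38 and -0.32 in the same order, and the WT medians were -0.36 for all members and -0.35 for V. With averaged probes the KO medians were -1.21 for II, -1.05 for V and -0.13 for the assembly factors, and within slide 4 the KO median of all members was -0.65.

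Between denervated genotypes the medians with quantile normalization were -0.0600 for all members, -0.33 for II, -0.12 for III, 0.00677 for IV and -0.0345 for V. With the deposited values they were -0.0787 for all members, -0.34 for II, 0.0058 for IV and -0.0536 for V. With normexp they were -0.12 for all members and -0.24 for II, with averaged probes -0.28 for II, and within slide 4 -0.12 for all members. The medians of the difference of responses with quantile normalization were -0.10 for all members, -0.24 for II, -0.26 for III, -0.0247 for IV and -0.0484 for V. With the deposited values they were -0.11, -0.27, -0.26, -0.0479 and -0.0403, and for II -0.22 with normexp and -0.26 with averaged probes.

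The denervation change of Cox6a2 minus Cox6a1 was -0.0633 with quantile normalization (exact p = 0.59), -0.42 with normexp (exact p = 0.035) and -0.0920 with the deposited values (exact p = 0.415); its difference of responses was -0.51 with the deposited values (exact p = 0.05). Within slides this pair was -0.18 on slide 1 for WT denervation, -0.51 on slide 1 and -0.84 on slide 4 between denervated genotypes, and 0.28 on slide 2 between control genotypes. Cox7a1 minus Cox7a2 was -1.54 on slide 3 for KO denervation, and 0.86 on slide 1 and -0.60 on slide 4 between denervated genotypes. Cox8b minus Cox8a was -1.36 on slide 1 for WT denervation and 0.0224 on slide 3 between control genotypes.

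With 1 array left out, the counts ranged from 35 to 39 lower and 2 to 4 higher in KO muscle and from 21 to 29 lower and 3 to 5 higher in WT muscle; the 3 came without a WT control or WT denervated replicate 1 or 2. Between denervated genotypes the count ranged from 0 to 1, and the change of Cox6a2 minus Cox6a1 from -0.46 to -0.37 (exact p = 0.03 to 0.09).

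With the replicate number as a block the counts were 39 lower and 3 higher in KO and 27 lower and 5 higher in WT muscle. With the block within genotype they were 38 lower in KO and 26 lower and 3 higher in WT muscle; the calls of Uqcrfs1, Cox17 and Cox18 in WT and of Cox7c in KO muscle were lost. With the replicate block Sdhb kept its call between denervated genotypes (adjusted p = 0.0424).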
